A study of Mus musculus with 19 samples.

Results

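Somatostatin (SST) interneurons were set against the whole class of Gad2 neurons of the mouse neocortex, with the microRNAs (miRNAs) bound to Ago2 as the readout. The comparison took every library labelled SST (n = 2) and every library labelled Gad2 (n = 3), which is 5 of the 19 libraries of the series, across all 528 miRNA names in the deposited table. Both groups were anti-myc (sc-40) precipitates from neocortex of P56 mice on the C57BL/6 & 129 background, and each library pooled 4 tissues. The cells of each class carried a Myc-tagged Ago2, so that its miRNAs could be precipitated from a homogenate of the whole tissue. The sources used here do not give the allele that drives the tag, nor whether replicates came from different animals, so p-values measure the spread between libraries, which may be partly technical. Levels of PV cells (n = 2, the same antibody, strain and pooling), Camk2a cells (n = 3, anti-myc) and whole neocortex (n = 3, anti-Ago2) are given beside the comparison where they place a miRNA.

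SST interneurons are GABAergic cells that mostly contact the dendrites of pyramidal neurons. The product of Gad2 makes GABA, and nearly all GABAergic neurons express it, so the Gad2 class contains the SST cells together with parvalbumin (PV) cells and others. A miRNA guides Ago2 to messenger RNAs mainly through its seed, the bases near its 5′ end that pair with the target, and miRNAs with the same seed share many targets. Most hairpin precursors yield an abundant arm and a minor arm, marked here with an asterisk or by 5p and 3p as in the deposited names.

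The miRNAs on which the comparison turns are shown 5′ to 3′ as their mature sequences, with bases 2 to 8, the seed, in capitals and grouped by shared seed, because members of a seed group did not always differ in the same direction. Of the 528 names, 351 were matched to mature sequences of RefSeq (GRCm38.p6).
Higher in SST, seed GGAAGAC of miR-7:
miR-7a: uGGAAGACuagugauuuuguugu
miR-7b: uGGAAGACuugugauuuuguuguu
Higher in SST, seed AACAGUC of miR-132 and miR-212:
miR-132: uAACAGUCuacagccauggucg
miR-212-3p: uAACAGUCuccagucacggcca
Higher in SST, seed AGCAGCA of miR-15 and miR-16:
miR-15a: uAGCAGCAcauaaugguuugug
miR-16: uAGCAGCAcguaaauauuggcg
miR-322: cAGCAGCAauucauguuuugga
Higher in SST, seed ACAUUCA of miR-181:
miR-181a: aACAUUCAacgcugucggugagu
miR-181b: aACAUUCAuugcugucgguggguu
Higher in SST, with a seed that none of the other sequences shown has:
miR-301a: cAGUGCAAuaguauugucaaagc
miR-341: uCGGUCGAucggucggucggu
miR-744: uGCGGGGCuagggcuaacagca
miR-204: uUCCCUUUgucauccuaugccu
Seed GGCAGUG of miR-34, with miR-34a lower and miR-34b-5p higher in SST:
miR-34a: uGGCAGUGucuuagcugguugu
miR-34b-5p: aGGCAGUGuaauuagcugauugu
Lower in SST, seed GCUACAU of miR-221 and miR-222:
miR-221: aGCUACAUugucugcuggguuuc
miR-222: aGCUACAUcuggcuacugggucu
Lower in SST, seed GAGGUAG of let-7:
let-7a: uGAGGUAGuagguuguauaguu
let-7b: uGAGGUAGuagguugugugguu
let-7c: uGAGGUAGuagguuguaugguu
let-7e: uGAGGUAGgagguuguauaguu
Lower in SST, with a seed that none of the other sequences shown has:
miR-128: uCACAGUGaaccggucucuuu
miR-129-2-3p: aAGCCCUUaccccaaaaagcau
miR-133b: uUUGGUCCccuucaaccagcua
miR-369-3p: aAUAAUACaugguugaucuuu

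By the RefSeq annotation, miR-132 and miR-212 come from neighbouring hairpins on the plus strand (chr11:75173682-75173747 and chr11:75173388-75173478, GRCm38), both in an intron of the noncoding 1700016P03Rik of GENCODE M21. miR-7a comes from a hairpin in an intron of Hnrnpk (chr13:58392779-58392886, minus strand) and from another at chr7:78888277-78888373, and miR-7b from chr17:56242988-56243098. The hairpin of miR-301a lies in an intron of Ska2, that of miR-744 in an intron of Map2k4, that of miR-204 in an intron of Trpm3, and that of miR-341 in an intron of the noncoding Rian. Both hairpins of miR-128 are intronic, in R3hdm1 and Arpp21. miR-221 and miR-222 are neighbours on the X chromosome (chrX:19146294-19146388 and chrX:19146893-19146971, minus strand), outside any annotated gene on their strand. miR-34a (chr4:150068454-150068555) and miR-34b (chr9:51103562-51103645) are encoded on different chromosomes.

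The SST libraries held 1278770 and 2457681 miRNA reads and the Gad2 libraries 14249087, 7414684 and 6983992. Levels are reads per 1000000 miRNA reads (RPM), hence shares of the miRNA pool and not amounts per cell, and fewer cells of a type and less RNA per cell cannot be told apart in them. The limit that 3 reads set lay between 1.221 and 2.346 RPM in SST and between 0.211 and 0.43 RPM in Gad2. Each of the 5 libraries had its nearest neighbour in its own group. No replicate pair was close enough to be 1 library deposited again: chi-square divided by its degrees of freedom was 55.3 between the SST libraries and 250.2 to 498.4 between Gad2 libraries, where counting error alone gives about 1. That ratio grows with depth, so it does not rank the groups by likeness of replicates. The root mean square log2 distance to the nearest library was 1.176 in SST and 0.669 to 0.792 in Gad2. It takes in miRNAs of few reads, whose counting error is larger in the shallower SST libraries. It therefore does not rank the groups by likeness of replicates either. Small RNA libraries hold no Sst or Gad2 messenger RNA, so the class labels could not be checked against their defining genes.

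The most abundant miRNAs differed in order between the groups. miR-29b, a miRNA that accumulates in mature neurons, led in SST, at 177550 and 182469 RPM, against 114953, 122730 and 107189 RPM in Gad2. miR-124, the leading miRNA of neurons, held 15.4% ± 0.193 of miRNA reads in SST (SD, n = 2) and 26.5% ± 2.01 in Gad2 (SD, n = 3). The SST libraries had 152658 and 155394 RPM of miR-124, against 266972, 284250 and 244214 RPM in the Gad2 libraries, and the groups did not overlap. miR-124 was 1.72-fold lower in SST (log2 change -0.78 ± 0.18 SE, limma adjusted p = 0.0025). miR-29b was higher (log2 change 0.65 ± 0.18, limma adjusted p = 0.012), but with TMM-divided values its change was 0.09 (adjusted p = 0.8431), and its call was also lost without either SST library (adjusted p = 0.0616 and 0.0676). miR-9, which acts in neurogenesis, did not pass the test (log2 change -0.01, limma adjusted p = 0.9909), at 68021 and 64935 RPM in SST against 65144, 76664 and 59940 RPM in Gad2. Of the 10 most abundant miRNAs of SST, miR-181a was raised most, as described below with its family, and miR-29a, miR-29c, miR-22, miR-26a and miR-376a did not pass the test.

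Over all 522 miRNAs tested in limma, 27.6% were called at an adjusted p under 0.05, of which 113 were higher in SST (21.6%) and 31 lower (5.94%). The shares of 21.6% and 5.94% are those beside which the list counts below stand. A change of 2-fold or more was reached by 95 (18.2%), 72 higher and 23 lower. The libraries of the groups did not overlap for 279 miRNAs (53.4%). Without SST replicate 1, 83 miRNAs were called, and with the SST and Gad2 libraries fitted alone 56. The median log2 change of all miRNAs was 0.42 as shares of reads. Scalings that centre the typical miRNA gave another split. With values divided by TMM factors (the scaling factors of edgeR, 1.528 and 1.416 in SST against 0.905, 1.089 and 1.013 in Gad2), 28 miRNAs were called higher in SST (5.36%) and 59 lower (11.3%), 16.7% in all, at a median of -0.09. Values divided by the size factors of DESeq2 gave 37 higher (7.09%) and 54 lower (10.3%), 17.4% in all. edgeR on the recovered reads gave 43 higher (8.24%) and 57 lower (10.9%), and DESeq2 45 higher (8.62%) and 55 lower (10.5%), 19.2% in all for either tool. The share of calls that were higher was 78.5% as shares of reads, 32.2% with TMM, 40.7% with size factors, 43.0% in edgeR on recovered reads and 45.0% in DESeq2. Under all 4 of these scalings and as shares, 54 miRNAs were called in the same direction, 27 higher and 27 lower. The lower calls were thus mostly kept, 27 of 31, and the higher calls mostly not, 27 of 113. That split was set in advance by the factors, which were larger in SST for TMM and for size factors (1.415 and 1.4 in SST against 0.985, 1.011 and 1.132 in Gad2). Division by them lowers SST against Gad2 for every miRNA and so favours decreases. edgeR applies TMM factors too, and DESeq2 its size factors. A lower call kept under these scalings is therefore no added support, whereas a higher call was kept against them. Among the higher calls miR-127, miR-154 and miR-411 changed sign under at least 1 scaling.

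**Figure D1:**
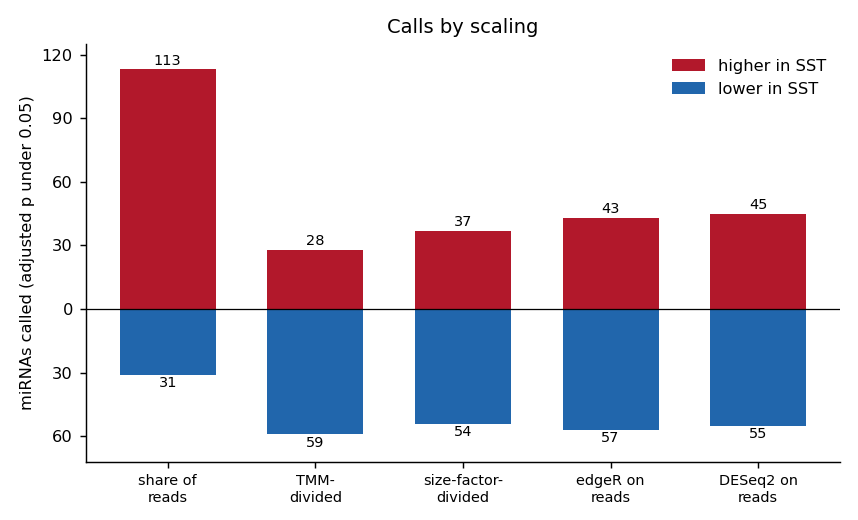
Number of miRNAs called higher (red, upward) or lower (blue, downward) in SST than in Gad2 at an adjusted p under 0.05, under each of 5 scalings. Taken as shares of reads, 113 were higher and 31 lower, whereas in the other 4 the lower calls (54 to 59) outnumbered the higher calls (28 to 45).

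**Figure D2:**
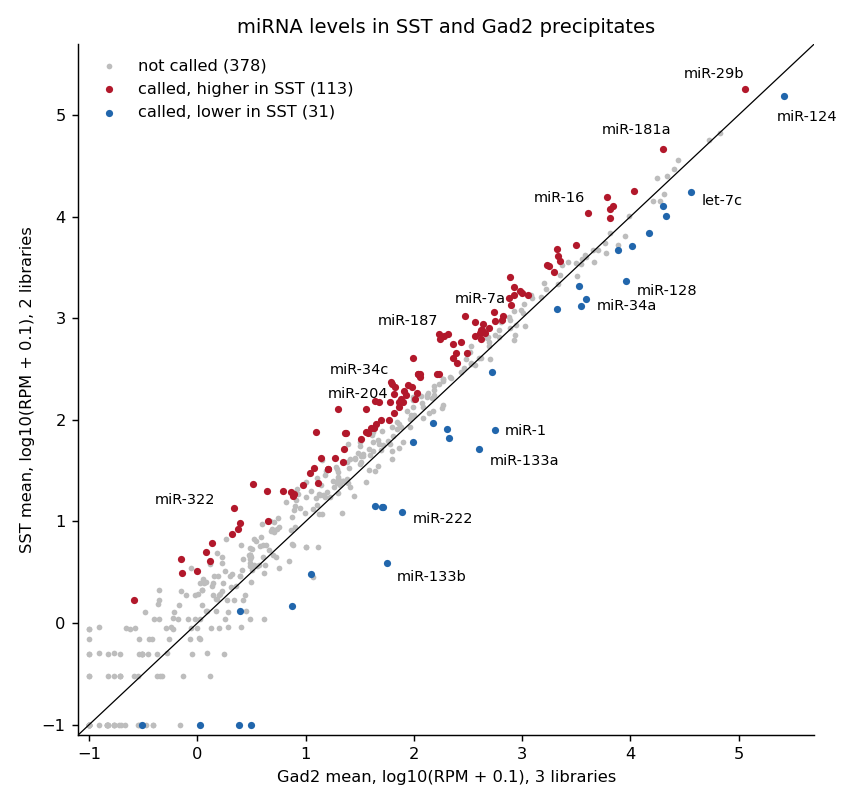
Mean level of each of 522 miRNAs in SST (vertical axis, 2 libraries) and in Gad2 (horizontal axis, 3 libraries), both as log10(RPM + 0.1), with the line of equality. Red points were called higher and blue points lower in SST, and most grey and red points lie above the line, as the median log2 change of 0.42 states.

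Both members of the miR-7 seed group, miRNAs of neuroendocrine and hypothalamic cells, were higher in SST. miR-7b had 478 and 334 RPM in SST libraries, against 100.4, 82.7 and 114 RPM in Gad2 libraries. miR-7a had 1252 and 877 RPM in SST, against 257, 220.5 and 419 RPM in Gad2. The lower SST library exceeded the highest Gad2 library for both. The log2 changes were 2.03 ± 0.35 for miR-7b (4.07-fold, limma adjusted p = 3.00e-04) and 1.87 ± 0.33 for miR-7a (adjusted p = 3.79e-04), and both were called under all 4 other scalings and without each library in turn. In PV cells miR-7a stood at 69.3 ± 13.0 RPM (SD, n = 2), below Gad2, and in Camk2a cells at 233 ± 88.5 RPM (SD, n = 3). Of the 5 names of the miR-7 list, 2 were higher and 0 lower, and the 3 uncalled ones are minor arms.

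miR-187 had 551 and 855 RPM in SST, against 205, 171 and 140 RPM in Gad2. It was close to absent from the other classes, at 7.97 ± 0.346 RPM in PV, 4.83 ± 0.577 in Camk2a cells and 12.1 ± 6.00 in whole neocortex. Its log2 change of 2.01 ± 0.51 (4.04-fold, limma adjusted p = 0.006) was not called with TMM (adjusted p = 0.0585) or without SST replicate 2 (adjusted p = 0.0773). Both arms of miR-490, encoded in an intron of the muscarinic receptor gene Chrm2, were higher as well. miR-490-3p had 207 and 245 RPM in SST and 57.1, 63.4 and 65.9 RPM in Gad2, and miR-490-5p 229 and 188 RPM in SST and 63.4, 76.7 and 60.4 RPM in Gad2. Their adjusted p-values were 0.0048 and 0.031 in limma, and 0.0631 and 0.2124 with TMM, and miR-490-5p was called without 1 of the 5 libraries only.

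miR-132, a miRNA induced by neuronal activity, had 842 and 552 RPM in SST, against 188, 172 and 256 RPM in Gad2. It was 3.37-fold higher (log2 change 1.75 ± 0.24, limma adjusted p = 2.76e-05). Its SST mean of 697 RPM was near the 715 ± 117 RPM of Camk2a cells, while PV cells had 148 ± 10.4 RPM. The neighbouring miR-212-3p had 213 and 133.9 RPM in SST, against 77.3, 78.9 and 96.9 RPM in Gad2 (2.01-fold, limma adjusted p = 0.0282), and was called under none of the 4 other scalings, nor without SST replicate 1, Gad2 replicate 1 or Gad2 replicate 2 (adjusted p = 0.2753, 0.0763 and 0.0681). Of the activity list of miR-132, miR-212 and miR-134, 2 of 6 names were higher and 0 lower, beside 21.6% and 5.94% of all tested, and under each of the 4 other scalings 1 was higher.

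miR-301a and miR-744, both intronic, were higher by similar amounts. miR-301a had 766 and 564 RPM in SST, against 146, 189 and 236 RPM in Gad2 (log2 change 1.81 ± 0.23, limma adjusted p = 1.61e-05). miR-744 had 490 and 755 RPM in SST, against 176, 190 and 153.1 RPM in Gad2 (log2 change 1.82 ± 0.21, limma adjusted p = 5.39e-06). Both were called under all 4 other scalings and without each library. PV cells also had high miR-301a, at 517 ± 10.9 RPM, whereas Camk2a cells had 55.5 ± 8.78 RPM. miR-326, in an intron of Arrb1, had 270 and 170.5 RPM in SST, against 122, 111 and 32.5 RPM in Gad2 and 268 ± 27.2 RPM in PV, and was called under none of the other scalings. Its log2 change of 1.49 was 0.88 without Gad2 replicate 3, and without SST replicate 1 the call was lost (adjusted p = 0.1373).

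**Figure D3:**
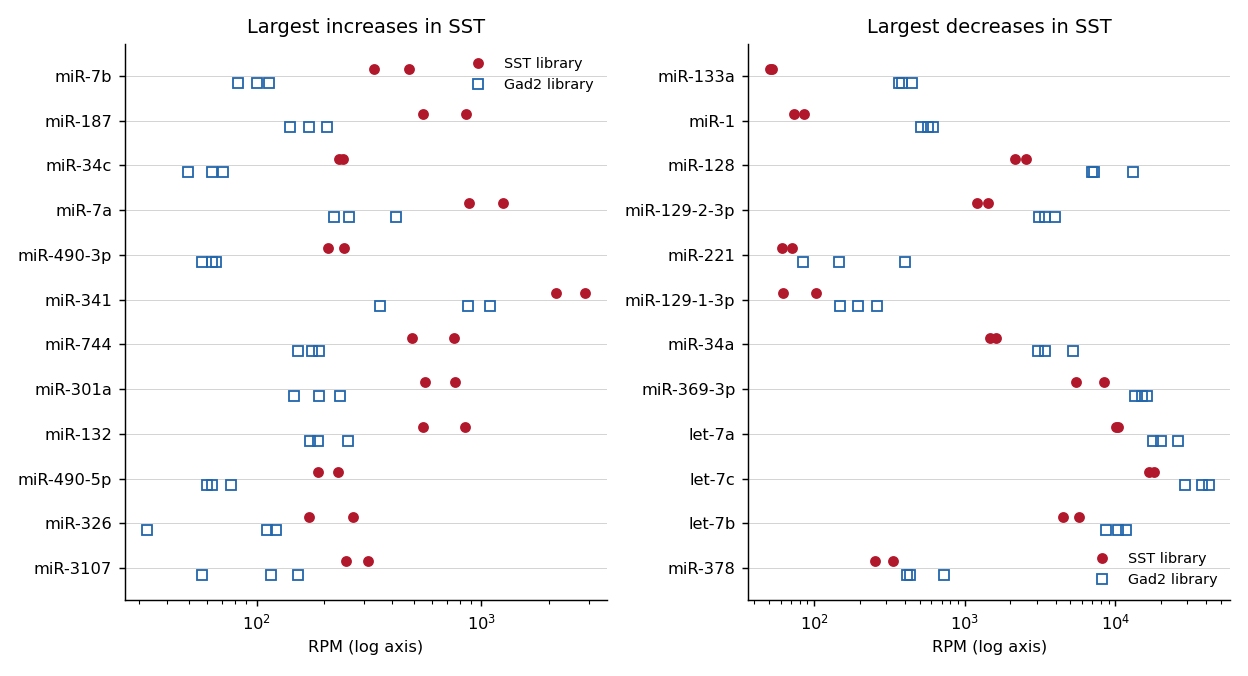
Level in every SST library (red circles) and every Gad2 library (open blue squares) of the 12 miRNAs with the largest increases and the 12 with the largest decreases in SST, among called miRNAs whose groups did not overlap and whose SST and Gad2 means averaged at least 100 RPM. RPM is on a log axis, and in miR-221 and miR-128 the Gad2 library with the highest value stands well apart from the other two.

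The strongest decreases were in miR-1 and miR-133, which are best known from heart and skeletal muscle. miR-133a had 52.4 and 50.9 RPM in SST, against 364, 448 and 382.02 RPM in Gad2. miR-1 had 85.2 and 73.6 RPM in SST, against 617, 513 and 569 RPM in Gad2. miR-133b, which shares its seed with miR-133a but had a far lower level, had 3.13 and 4.48 RPM in SST and 49.1, 66.6 and 54.8 RPM in Gad2. The gap between groups was many times the spread within them. The decreases were 7.67-fold for miR-133a (log2 change -2.94 ± 0.19, limma adjusted p = 5.27e-10), 7.12-fold for miR-1 (adjusted p = 3.89e-07) and 14.7-fold for miR-133b (adjusted p = 5.27e-10). All were called under all 4 other scalings, which favour decreases. PV cells had the highest levels, 1741 ± 441 RPM of miR-133a and 2086 ± 336 RPM of miR-1. Of the list of miR-1 and miR-133, 4 of 5 names were lower and 0 higher, with a median log2 change of -2.94 beside 0.42 for all tested. miR-133a*, 1 of the 4, was listed at 0 in both SST libraries. It had 43, 13 and 15 reads in the deeper Gad2 libraries, so its call lies near the floor of SST.

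miR-34 members went in opposite directions although they share a seed. miR-34a, which is induced by p53, had 1620 and 1475 RPM in SST, against 5238, 3423 and 3044 RPM in Gad2 (log2 change -1.30 ± 0.28, limma adjusted p = 0.0019). miR-34c had 232 and 243 RPM in SST, against 63.3, 49.4 and 71.3 RPM in Gad2 (log2 change 1.97 ± 0.30, limma adjusted p = 1.14e-04). miR-34b-5p had 53.2 and 49.6 RPM in SST, against 23.2, 19.4 and 25.5 RPM in Gad2 (adjusted p = 0.0129), and lost its call with TMM (adjusted p = 0.2423) and without SST replicate 1 or 2 (adjusted p = 0.0800 and 0.0522). The groups did not overlap for any of these names, and miR-34a and miR-34c were called under all 4 other scalings. Those scalings favour decreases such as that of miR-34a. PV cells had 11877 ± 147 RPM of miR-34a and 85.5 ± 14.2 RPM of miR-34c. Since miR-34a was the more abundant, the summed level of the GGCAGUG seed over miR-34a and miR-34b-5p was lower in SST, at 1673 and 1524 RPM, against 5261, 3442 and 3069 RPM in Gad2 (log2 change -1.26 ± 0.28, limma adjusted p = 0.0024). miR-34c is not in that sum, because its mature sequence was not matched.

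miR-128, an abundant neuronal miRNA of cortex, had 2144 and 2545 RPM in SST, against 7018, 7191 and 13159 RPM in Gad2. It was 3.73-fold lower in SST (log2 change -1.90 ± 0.22, limma adjusted p = 4.27e-06) and the log2 change was -1.60 without Gad2 replicate 3, the highest library. Camk2a cells had 153461 ± 14821 RPM. miR-221 and miR-222 were lower too, with miR-222 at 11.7 and 12.6 RPM in SST and 65.8, 41.7 and 123 RPM in Gad2 (log2 change -2.51 ± 0.33, limma adjusted p = 1.81e-05). miR-221 had 71.2 and 61.0 RPM in SST, against 147, 83.6 and 399.9 RPM in Gad2 (log2 change -1.37 ± 0.41, limma adjusted p = 0.0168). Its call rested on single libraries, since without Gad2 replicate 3 the log2 change was -0.75 (adjusted p = 0.0726) and without SST replicate 1 or 2 the adjusted p was 0.0712 or 0.1082. Gad2 replicate 3 was the highest Gad2 library for miR-128, miR-221, miR-222 and miR-135a, 4 miRNAs whose level in Camk2a cells was above that in every Gad2 library, and whether these observations are connected was not tested. miR-129-2-3p had 1426 and 1206 RPM in SST, against 3088, 3392 and 3972 RPM in Gad2 (log2 change -1.40 ± 0.23, limma adjusted p = 2.61e-04). Of the neuronal list, which holds these and other miRNAs known from neurons, 8 of 29 names were lower and 4 higher, at a median of -0.28, and with TMM 13 were lower and 0 higher. The higher ones were miR-138, miR-149, miR-149* and miR-153. The lower ones included the minor arms miR-135a-1* and miR-138-2*, and 2 names of the list were at 0 in both SST libraries. The lower miR-135a was not called without Gad2 replicate 3 (log2 change -1.19, limma adjusted p = 0.0675), and its log2 change was -1.23 without SST replicate 2.

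Of the let-7 family, miRNAs of differentiated cells, 6 names were called lower in SST, while the abundant let-7d and let-7g did not pass the test (adjusted p = 0.0943 and 0.1316). let-7c had 18155 and 16697 RPM in SST, against 41488, 29052 and 37721 RPM in Gad2, and let-7a had 10340 and 10159 RPM in SST, against 20013, 17750 and 26191 RPM in Gad2. Both fell by 1.04 on the log2 scale (limma adjusted p = 4.32e-04 for let-7c and 4.37e-04 for let-7a), and let-7b, let-7e, let-7f and let-7i were also called lower. let-7e lost its call without SST replicate 2 (log2 change -0.35, adjusted p = 0.2895) and without Gad2 replicate 3 (adjusted p = 0.0513), and let-7f and let-7i kept theirs in 2 and 3 of the 5 fits that leave out a library. The 2 higher names of the family were the minor arms let-7i* and miR-98*, at 4.94 and 3.97 RPM in SST. In all, 6 of 21 names were lower and 2 higher, at a median of -0.04. Summed over the 9 names with the GAGGUAG seed, the family held 76148 and 71102 RPM in SST, against 130541, 104879 and 146400 RPM in Gad2 (log2 change -0.78 ± 0.16, limma adjusted p = 0.0018). The level in PV cells was lower again for let-7c, at 12385 ± 2740 RPM. The let-7 names differ by single bases in places, so reads may be divided among them by the mapping, which the family sum does not depend on.

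The abundant members of the miR-181 and miR-15/16 families were higher in SST as shares of reads, and miR-181a was not called with TMM. miR-181a had 45148 and 48424 RPM in SST, against 20423, 17306 and 22154 RPM in Gad2 (log2 change 1.24 ± 0.21, limma adjusted p = 2.74e-04), and with TMM the change was 0.68 (adjusted p = 0.0576). The ACAUUCA seed summed to 59996 and 65344 RPM in SST and to 29876, 26154 and 32026 RPM in Gad2 (log2 change 1.10 ± 0.19, limma adjusted p = 3.74e-04), and with TMM its change was 0.54 (adjusted p = 0.1222). Camk2a cells had 5311 ± 851 RPM of miR-181a, the lowest of the neocortical classes. miR-16 had 11642 and 10346 RPM in SST, against 3758, 4867 and 3525 RPM in Gad2 (log2 change 1.45 ± 0.25, limma adjusted p = 3.00e-04), and was called under all 4 other scalings. miR-322, of the same seed, had 10.9 and 16.3 RPM in SST, against 0.983, 4.72 and 0.573 RPM in Gad2 (log2 change 3.15 ± 0.64, limma adjusted p = 0.0014). The change of miR-322 was 3.98 without Gad2 replicate 2 and 2.56 without Gad2 replicate 3. Of the miR-181 list 3 of 10 names were higher and 1 lower, and of the miR-15/16 list 5 of 12 were higher and 1 lower, beside 21.6% and 5.94% of all tested. With TMM these counts were 0 and 1 for miR-181, and 2 and 0 for miR-15/16. The list medians were 0.72 and 0.38 as shares of reads, and 0.19 and -0.15 with TMM. The lower names, miR-181a-2* and miR-15b*, were listed at 0 in both SST libraries and averaged 0.956 and 0.208 RPM in Gad2, below the floor of 3 reads in SST.

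The imprinted Dlk1-Dio3 domain on chromosome 12 carries a large group of miRNAs that are expressed from the maternal allele in brain. Its proximal part, near Meg3 and the antisense transcript of Rtl1, had 10 of 27 names higher and 0 lower (median 0.64), and its distal part 9 of 64 higher and 1 lower (median 0.27). With TMM these counts were 1 and 0 for the proximal part and 1 and 6 for the distal part, so the number of higher calls depended on scaling. miR-341 held under all 4 other scalings, with 2153 and 2889 RPM in SST, against 1088, 868 and 353 RPM in Gad2 (log2 change 1.85 ± 0.39, limma adjusted p = 0.0018). So did miR-300*, with 830 and 1016 RPM in SST, against 389, 294 and 418 RPM in Gad2 (adjusted p = 5.76e-04). The only lower name was miR-369-3p, with 5429 and 8377 RPM in SST, against 14991, 13382 and 16221 RPM in Gad2 (log2 change -1.14 ± 0.23, limma adjusted p = 0.001).

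Smaller family lists had these counts, given as higher and lower in SST of the names tested, beside 21.6% higher and 5.94% lower of all tested. The counts were 3 and 0 of 5 for miR-125, 3 and 0 of 13 for miR-30, 4 and 0 of 16 for miR-17-92 and its paralogues, and 3 and 0 of 6 for miR-28, miR-151 and miR-708. They were 1 and 0 of 7 for miR-29, 1 and 0 of 11 for miR-23/24/27, 1 and 0 of 6 for miR-99/100, 2 and 1 of 47 for the miRNAs of the Sfmbt2 intron, and 0 and 0 for miR-26, miR-200 and the miR-183 cluster. With TMM no name of the list of miR-125 or that of miR-28, miR-151 and miR-708 was called, and the counts were 0 and 3 for miR-30, 1 and 1 for miR-17-92, 0 and 1 for each of miR-29, miR-23/24/27 and miR-99/100, and 0 and 3 for the Sfmbt2 intron. Some of these calls were lost without a single library. miR-20a was not called without Gad2 replicate 1 or 2 (limma adjusted p = 0.0516 and 0.0733). Without Gad2 replicate 1, miR-25 and miR-151-3p were not called (limma adjusted p = 0.0838 and 0.1076), nor was miR-27a without Gad2 replicate 3 (0.1315). The log2 change of miR-125a-5p was 0.65 without SST replicate 1. miR-106b* held under all 4 other scalings, at 24.2 and 15.9 RPM in SST and 5.61, 4.59 and 2.58 RPM in Gad2. miR-139-5p, chosen after its values were seen and abundant in SST, had 16853 and 14516 RPM in SST, against 5588, 5449 and 7347 RPM in Gad2 (log2 change 1.37 ± 0.29, limma adjusted p = 0.0016), and it too was called under all 4 other scalings. The minor arms of miR-30a and miR-30e accounted for 2 of the 3 miR-30 calls, and miR-30d* for the remaining call. miR-30a* was not called without Gad2 replicate 3 (log2 change 0.44, limma adjusted p = 0.1009). miR-30d* lost its call without SST replicate 2 (log2 change 1.02).

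**Figure D4:**
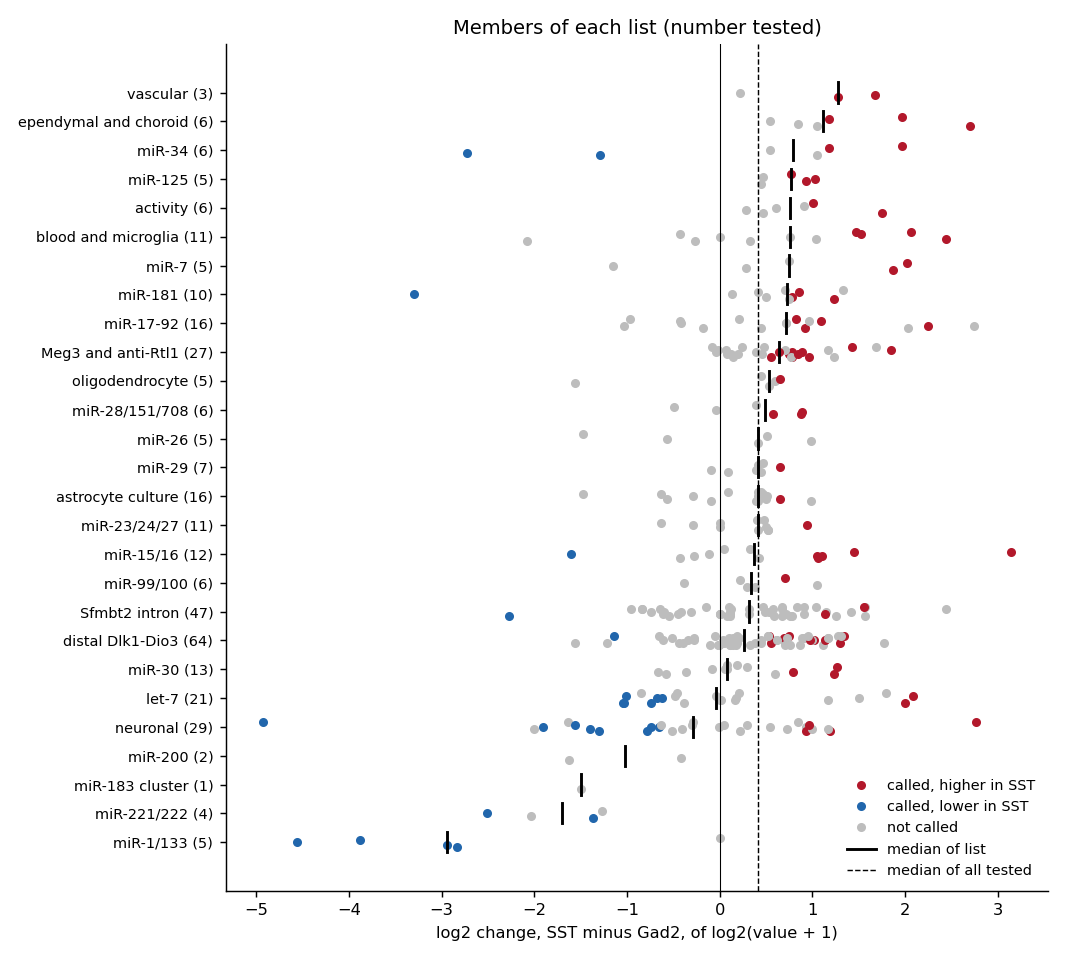
log2 change (SST minus Gad2) of every tested member of 27 lists, ordered by list median, with called members in red (higher) and blue (lower), the list median as a black bar and the median of all tested miRNAs (0.42) as a dashed line. The list of miR-1 and miR-133 has the lowest median, -2.94, and the miR-34 list has called members on both sides of 0.

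Some markers of cells that neither class should contain were among the miRNAs called higher in SST, and none was called lower. The number called higher was 2 of 3 in the vascular list, 4 of 11 in the blood and microglia list, 3 of 6 in the ependymal and choroid list, 1 of 5 in the oligodendrocyte list and 1 of 16 in the astrocyte culture list, beside 21.6% of all tested. With TMM the counts were 2, 4, 2, 0 and 0, and 2 astrocyte culture names were lower. miR-126-3p of endothelium had 568 and 542 RPM in SST, against 215, 250 and 220.8 RPM in Gad2 (log2 change 1.28 ± 0.17, limma adjusted p = 1.92e-05), and miR-126-5p was higher with it. The vascular list of 3 names summed to 734 to 766 RPM in SST and to 295 to 354 RPM in Gad2, while whole neocortex had 7841 to 8178 RPM. Camk2a cells had more of it than SST, 933.7 to 993.2 RPM, and PV cells had 294.6 to 329.9 RPM. The higher names of the blood and microglia list were miR-486, miR-451, miR-150 and miR-223. That list summed to 300.3 to 360.5 RPM in SST and to 76.3 to 177 RPM in Gad2, most of it miR-486, which PV cells also had at 220.2 ± 5.03 RPM and whole neocortex at 21.2 ± 2.57 RPM. The microglial miR-142-3p was listed at 0 in both SST libraries, and the erythroid miR-451 stood at 38.3 and 28.5 RPM in SST, at 8.07, 12.3 and 15.03 RPM in Gad2 and at 2431 ± 1126 RPM in whole neocortex. miR-486 and miR-3107 had nearly the same values and count 1 measurement.

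miR-204, abundant in choroid plexus, had 129 and 126.5 RPM in SST, against 16.4, 25.4 and 18.2 RPM in Gad2 (log2 change 2.70 ± 0.32, limma adjusted p = 5.80e-06). The ependymal and choroid list, which also holds miR-34b and miR-34c, summed to 425 to 429.7 RPM in SST and to 99 to 123 RPM in Gad2. Whole neocortex had 97.4 to 124.8 RPM, below SST. The oligodendrocyte list summed to 1011 to 1219 RPM in SST and to 681 to 734 RPM in Gad2. PV cells overlapped SST, at 906.8 to 1114.3 RPM, and Camk2a cells had 666.7 to 799.3 RPM. The higher name of the oligodendrocyte list, miR-338-3p, was called under none of the 4 other scalings, and its log2 change was 0.49 without SST replicate 2. The higher name of the astrocyte culture list was miR-29b, which neurons also express. The part of other cells in the differences between SST and Gad2 was not tested.

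The levels in PV and Camk2a cells place the called miRNAs among the 4 classes. Because the calls compare SST with Gad2, a higher call cannot have its highest mean in Gad2, nor a lower call in SST, and nothing is read from those shares. Of the 113 higher calls, 16 had their highest mean in Camk2a, 8 in PV and the others in SST. Of the 31 lower calls, 12 had their highest mean in Camk2a, 8 in PV and 11 in Gad2. Of all 522 tested, 130 had it in Camk2a, 100 in PV, 48 in Gad2 and 244 in SST. The 244 have no counterpart among lower calls, so no excess in Camk2a or PV is read from these counts. The lower calls highest in PV were miR-1, miR-124, miR-133a, miR-133a*, miR-133b, miR-218, miR-34a and miR-34a*. miR-128, miR-221, miR-222, miR-135a and both 3p arms of miR-129 were among those highest in Camk2a. For miR-128 the SST mean of 2344 RPM and the PV mean of 1888 ± 154.98 RPM were close, with ranges that did not meet, whereas for miR-34a SST stood nearer to Camk2a cells (1034 ± 162 RPM) than to PV cells. These orders are a description of group means, with no test.

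**Figure D5:**
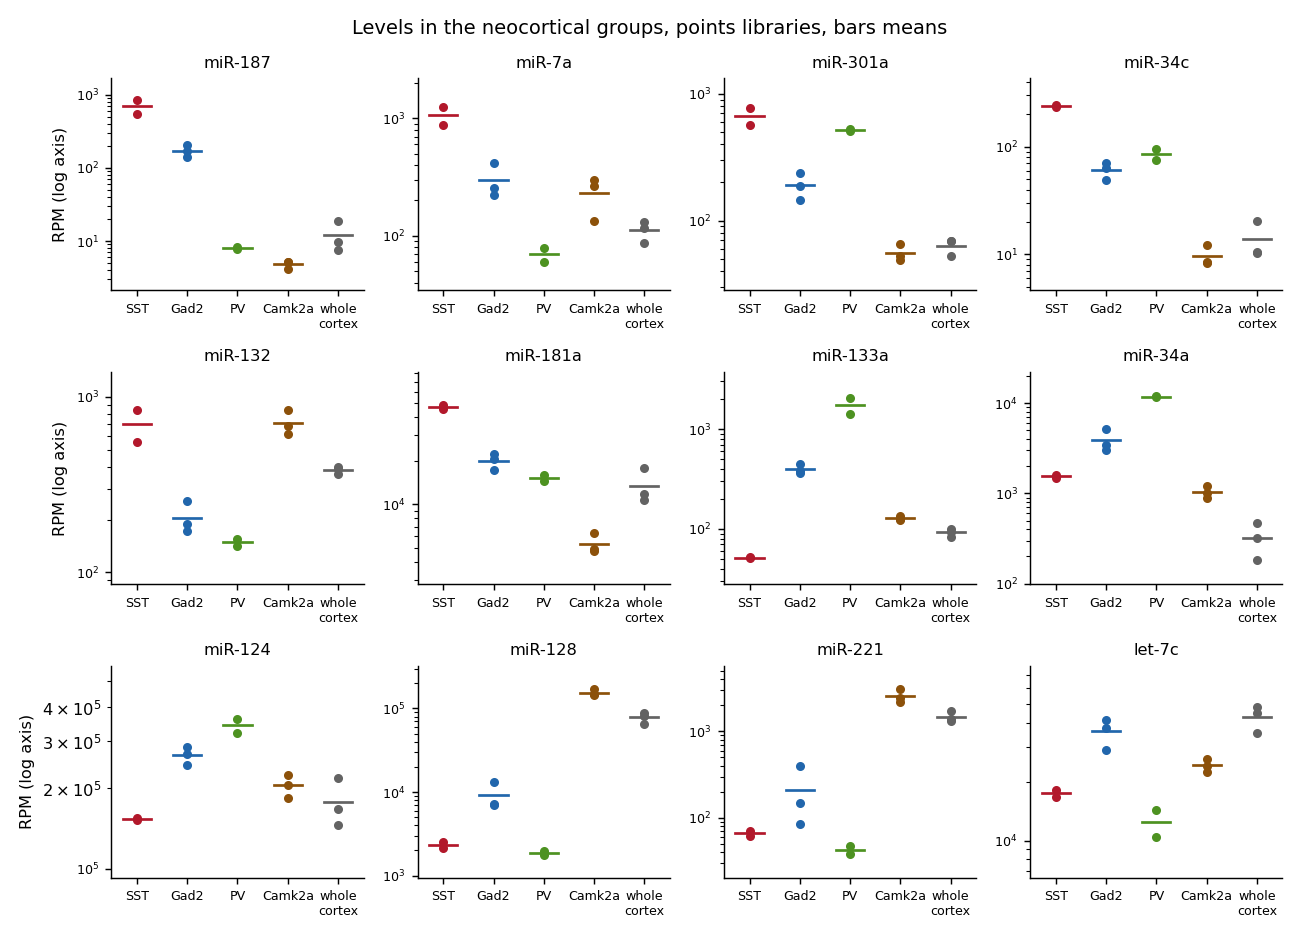
Level of 12 miRNAs in every library (points) and the mean (bars) of SST, Gad2, PV, Camk2a and whole neocortex, with RPM on a log axis. miR-187 is above 100 RPM in SST and Gad2 libraries and below 20 RPM in all others, miR-133a and miR-34a are highest in PV, and miR-128 and miR-221 are highest in Camk2a cells.

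Summed by seed, 85 of 284 seeds were called in limma (29.9%), 69 higher (24.3%) and 16 lower (5.63%) in SST, and with TMM 41 were called (14.4%), 11 higher (3.87%) and 30 lower (10.6%). Without SST replicate 1 or 2 the number was 53 or 54, and with the 5 libraries fitted alone 40. Among called seeds whose SST and Gad2 means averaged at least 100 RPM the highest change was that of GGAAGAC of miR-7 (log2 change 1.91 ± 0.32, limma adjusted p = 2.54e-04), with 1730 and 1211 RPM in SST, against 357, 303 and 533 RPM in Gad2. The seed AACAGUC of miR-132 and miR-212-3p summed to 1056 and 686 RPM in SST, against 265, 251 and 353 RPM in Gad2 (log2 change 1.57 ± 0.23). AGCAGCA, with miR-15a, miR-15b, miR-16 and miR-322, summed to 12699 and 11687 RPM in SST, against 4274, 5576 and 4019 RPM in Gad2, and was called with TMM as well (limma adjusted p = 0.0079). miR-195 and miR-497 of the miR-15/16 list are not in that sum, which covers names with a matched sequence. The seed AGCACCA of miR-29a, miR-29b and miR-29c was the most abundant of these, at 252497 and 268298 RPM in SST, against 182955, 201014 and 172830 RPM in Gad2 (log2 change 0.49 ± 0.15, limma adjusted p = 0.0197, and -0.07 with TMM). Seed sums cover names with a matched sequence, which held 81.6% of reads in SST and 69.2% to 72.9% in Gad2.

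The share of the minor arm differed for 14 hairpins in limma (10.2% of those with both arms tested), 11 higher (8.03%) and 3 lower (2.19%) in SST. At the miR-132 hairpin, where miR-132* was the more abundant arm over the libraries, miR-132 made up 60.1% and 47.4% of reads in SST, against 33.5%, 27.6% and 28.2% in Gad2 (log2 change of the ratio 1.46 ± 0.33, limma adjusted p = 0.0117). miR-132* itself had 558 and 612 RPM in SST, against 373, 450 and 652 RPM in Gad2, and was not called. At the miR-369 hairpin the minor arm miR-369-5p made up 15.5% and 13.0% in SST, against 5.66%, 6.94% and 6.601% in Gad2 (log2 change 1.28 ± 0.26, limma adjusted p = 0.0096), so that the decrease of miR-369-3p was not matched by its partner arm. At the miR-296 hairpin the minor arm miR-296-5p made up 5.08% and 2.21% in SST, from 6 and 3 reads, against 24.6%, 24.6% and 14.1% in Gad2 (adjusted p = 0.0047), and this call held without each library in turn. The calls of the miR-132 and miR-369 hairpins were lost without SST replicate 1 (log2 changes 1.09 and 1.14) and with the SST and Gad2 libraries fitted alone. The number of hairpins called was 2 with the SST and Gad2 libraries fitted alone, 2 without SST replicate 1, 7 without SST replicate 2 and 5 without Gad2 replicate 3.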

How the data were processed

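Small RNA of 19 to 24 nt from immunoprecipitated Ago2 was sequenced on an Illumina Genome Analyzer II, per the labels. Reads were mapped with Bowtie to mm9, per the submitters' processing notes, with no version named in the sources used here. The deposited signal is each library's count scaled by the authors to a common total. Per the file headers it is RPM, but each column sums to 10000000, and 1/10 of the value is the RPM given here. Whole reads were recovered: in all libraries 100.0% of values lay within 0.0101, plus 1e-07 of the value, of a whole multiple of the step for 1 read, on the deposited scale.

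limma 3.58.1 (R 4.3.3) with a trend was fitted to log2(value + 1) of the deposited values, in 1 fit of 7 group means over 19 libraries, for the 522 names that reached 1 in 2 or more libraries. Fold changes are on that scale. Calls are Benjamini-Hochberg adjusted p-values under 0.05. edgeR 4.0.16 and DESeq2 1.42.0 on the recovered reads were alternatives. Seed sums used bases 2 to 8. Arm ratios used log2((minor + 0.5)/(major + 0.5)) of reads, where the arms together had 20 reads or more. The test steps were tested on simulated data.

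Named miRNAs were the 12 highest and 12 lowest changes among called miRNAs without overlap whose SST and Gad2 means averaged at least 100 RPM, up to 4 called members of each list with at least 10 RPM, the 10 most abundant of each group, both arms of these, and cell type markers. For seeds the 6 highest and 6 lowest were eligible. The comparison and the 27 lists were chosen with earlier results of these data known. Depth was 1278770 to 14249087 reads, and floors of 3 reads allow for counting error alone, as no molecular identifiers mark PCR copies. Mature sequences and hairpin positions came from RefSeq (GRCm38.p6) by name and arm, host genes from GENCODE M21, and no mm9 position was used.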

Additional observations from a re-analysis of the deposited data

How the results depend on the processing

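As reported, 113 miRNAs were called higher and 31 lower in SST. TMM-divided values gave 87 calls (28 higher, 59 lower), size-factor-divided values 91 (37 and 54), edgeR 100 (43 and 57) and DESeq2 100 (45 and 55). With the SST and Gad2 libraries fitted alone 56 were called (42 and 14). No filter gave 112 higher and 31 lower, a mean of at least 10 RPM 108 and 26 of 319, and a pseudocount of 10 gave 166 in all, 33 of them lower. Leaving out each library gave 83 to 121 calls, with 61 to 97 higher and 22 to 31 lower, the fewest without SST replicate 1, and 52 miRNAs were called in all 5 such fits. Among seeds (85 calls, 69 higher and 16 lower), TMM gave 41 (11 and 30), the 5 libraries alone 40 (31 and 9), and leaving out each library 53 to 71 (38 to 58 and 13 to 15). Among arm ratios (14 calls, 11 higher and 3 lower), the 5 libraries alone gave 2 (1 and 1), and leaving out each library 2 to 14 (1 to 11 and 1 to 3). The cause of these differences was not tested, except that the scaling factors lower SST against Gad2 and that a fit of 5 libraries has fewer to estimate the spread. No called miRNA reversed with a call in the opposite direction under any alternative run.

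Same-numbered SST and Gad2 libraries did not deviate together (r = -0.117 for number 1 and -0.075 for number 2), so the numbers were not taken as pairs. With the replicate block 110 miRNAs were called higher and 31 lower, beside 113 and 31 without it. Depth limited SST most: below 2.346 RPM its shallower library had under 3 reads, and with 2 SST libraries the spread of that class rests on the estimate shared by all 7 groups.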
